A study of Homo sapiens with 9 samples.

Results

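Nuclear receptors are transcription factors that bind small lipid-soluble molecules and change the activity of genes near their binding sites. A set of 38 human genes of this family was taken by name from the 27677 genes of the count table, and the levels of these receptors were compared between 3 groups of Caco-2 cells. Caco-2 is an established human colon adenocarcinoma line that takes on features of absorptive intestinal epithelium in culture. The control group had received 10 µM lovastatin, an inhibitor of cholesterol synthesis, for 48 h. A further group had received 10 µM lovastatin with 10 µM SGA360, and the last 10 µM lovastatin with 10 µM SGA315, also for 48 h. All cells were kept in αMEM with 10% lipid-depleted serum and antibiotics, so lovastatin and the lack of serum lipid were common to the controls and both treated groups. Cells without lovastatin, or with a ligand and no lovastatin, were not analysed here. Each group had 3 libraries of poly(A)-enriched RNA. The labels do not say whether these came from separate cultures, so every p-value rests on differences among these libraries, and those can be technical. The study asked how gene expression under lovastatin differs in the presence of ligands of the aryl hydrocarbon receptor (AHR), and SGA360 and SGA315 are those ligands.

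Most receptors of the family carry a DNA-binding domain with zinc fingers and a ligand-binding domain that exchanges corepressors for coactivators once a ligand is bound. Many, among them the receptors for fatty acids, oxysterols, bile acids, retinoic acid, thyroid hormone and vitamin D, bind DNA as a heterodimer with a retinoid X receptor, whereas steroid receptors bind as homodimers and several orphan receptors as monomers. In the intestinal epithelium these receptors are known for control of lipid uptake and efflux, bile acid transport, drug metabolism, calcium absorption and daily rhythm. AHR itself is not a nuclear receptor but a ligand-activated factor of another family.

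Depth was 12334088 to 16870131 counts per library, over 1 transcript entry per gene. Levels are given in CPM, the read count per unit of depth, scaled with TMM factors. These were 0.943 to 0.952 in the lovastatin libraries and 1.02 to 1.03 in the ligand libraries, so the scaling differs between controls and ligand groups. Because no transcript lengths are used, levels are compared between groups and not between genes. In edgeR's quasi-likelihood test, 9207 of 14678 genes (62.7%) were called for SGA360 against lovastatin alone at a Benjamini-Hochberg adjusted p under 0.05, and 10157 (69.2%) for SGA315. The spread between libraries of a group beyond counting error, edgeR's common coefficient of variation, was only 2.16%. Small differences are therefore called often in these data. Among 8 markers of the labelled epithelium, 6 passed the filter on low counts, KRT20 had at most 4 counts in a library and LGALS4 at most 16. The summed level of the 8 was 7050 to 7140 CPM in the controls, 5150 to 5570 in the SGA360 group and 3710 to 3800 in the SGA315 group, mostly from KRT8 and KRT18, and 5 of the 6 tested markers fell with each ligand. The other, CDX2, a transcription factor of intestinal identity, rose from 75.9 ± 0.883 to 117 ± 0.919 CPM with SGA315 (0.63, adjusted p = 4.69e-24) and was not called with SGA360 (0.08, adjusted p = 0.0686). Under totals-only scaling 1 of the 6 was higher and 5 were lower with each ligand. Because these are bulk libraries, fewer cells of a type and less RNA per cell cannot be told apart. The part of this shift in the receptor values below was not tested. The 4 leukocyte markers summed to 4.67 to 6.84 CPM over the 9 libraries, nearly all of it CD68. The 5 markers of fibroblasts and endothelium summed to 7.26 to 12 CPM.

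Of the 38 receptors, 29 passed the filter on low counts and 28 of these reached a mean of 1 CPM in at least 1 group. Among the other 9, the bile acid receptor NR1H4 had 3 counts over all 9 libraries, the pregnane receptor NR1I2 had 13 and the small corepressor-like receptor NR0B2 had 19. The estrogen receptors ESR1 and ESR2 had 19 and 66 counts, the progesterone receptor PGR had 1, and the immediate-early receptor NR4A3 had 66. These genes were not tested. RXRG had no count, where the limit that a count of 0 allows, 3 counts, corresponds to 0.174 to 0.236 CPM per library and covers counting error only. RXRB was also listed at 0, but 8 of its 10 nearest protein-coding neighbours, among them RING1 and VPS52, were at 0 too, so this value cannot be read as the absence of its RNA.

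The sequences before 2 receptors that rose with both ligands are shown because each holds a match to a sequence bound by known regulators of that gene. RARB, the retinoic acid receptor beta, is itself a textbook target of retinoic acid through a direct repeat with a 5-base spacer, and NR1D2, known as REV-ERB beta, is a target of the clock factors CLOCK and BMAL1, which bind E-boxes. Both windows come from RefSeq on GRCh38.p14 and run from 250 bases before to 50 bases after an annotated start. The RARB window is chr3:25428013-25428312 on the plus strand, and its capitals mark the repeat, GGTTCA and AGTTCA with any 5 bases between them, which begins 53 bases before the start. The NR1D2 window is chr3:23945871-23946170 on the plus strand, and its capitals mark the E-box CACGTG, which begins 155 and 105 bases before the start.
RARB: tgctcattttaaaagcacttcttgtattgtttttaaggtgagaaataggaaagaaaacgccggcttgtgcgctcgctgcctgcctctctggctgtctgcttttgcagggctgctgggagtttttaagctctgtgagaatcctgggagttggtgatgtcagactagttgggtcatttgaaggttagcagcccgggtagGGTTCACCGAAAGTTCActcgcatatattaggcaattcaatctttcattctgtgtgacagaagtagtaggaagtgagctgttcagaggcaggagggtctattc
NR1D2: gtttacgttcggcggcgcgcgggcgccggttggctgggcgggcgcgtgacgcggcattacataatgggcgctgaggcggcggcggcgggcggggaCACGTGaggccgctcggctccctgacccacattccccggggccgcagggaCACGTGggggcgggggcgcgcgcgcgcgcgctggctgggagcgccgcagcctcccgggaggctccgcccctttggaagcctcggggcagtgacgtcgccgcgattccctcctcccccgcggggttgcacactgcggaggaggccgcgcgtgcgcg
Both strands of 35116 such windows were searched. The direct repeat was in 6 of them (0.0171%), and the E-box in 2548 (7.26%). Of the 29 tested receptors, 26 had at least 1 window, 63 windows in all. The E-box was in 4 of these 63 windows (6.35%), those of NR1D2, NR2C1, NR2F2 and RARA. The core sequence GCGTG, bound by AHR with its partner, was in 26 of the 63 windows (41.3%) and in 36.5% of all windows. Neither GCGTG nor the E-box contains the other, though their end bases can overlap. These matches describe the letters of the windows and do not show binding.

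With SGA360, 11 of the 29 tested receptors rose, 7 fell and 11 were not called, so that 62.1% were called against 62.7% of all genes tested. The share that rose was 37.9%, against 31.4% of all genes, and the share that fell was 24.1%, against 31.4%. The median size of the change, without its sign, was 0.30 on the log2 scale, against 0.25 over all genes. In the comparison of SGA315 with lovastatin alone 16 receptors rose, 6 fell and 7 were not called, or 75.9% called against 69.2% of all genes. Here 55.2% rose, against 36% of all genes, and 20.7% fell, against 33.2%. The median unsigned change was 0.30, against 0.31 over all genes. Scaling to totals only, without TMM, shifted the median log2 change of all genes. For SGA360 it went from 0.02 to 0.14, and with SGA315 from 0.04 to 0.16. In that scaling 14 of the 29 receptors were higher and 4 lower with SGA360, where 44% of all genes were higher and 21.4% lower, and 18 were higher and 5 lower with SGA315, where 47.2% and 24.7% of all genes were. NR3C2 and NR2F1 would not have passed the filter on low counts without the SGA315 libraries, where they were highest, so the 16 higher with SGA315 (NR3C2 among them) and the 11 lower in the direct comparison of the ligands (both among them) are read as descriptions. Treated and control CPM were fully separate for 19 of 29 receptors with SGA360 (65.5%, against 66.3% of all genes) and for 23 with SGA315 (79.3%, against 70.3%). NR3C2 and NR2F1 are among these 23, so this count and the SGA315 shares and median that hold them are descriptions as well. Both comparisons share the same 3 lovastatin libraries.

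**Figure D1:**
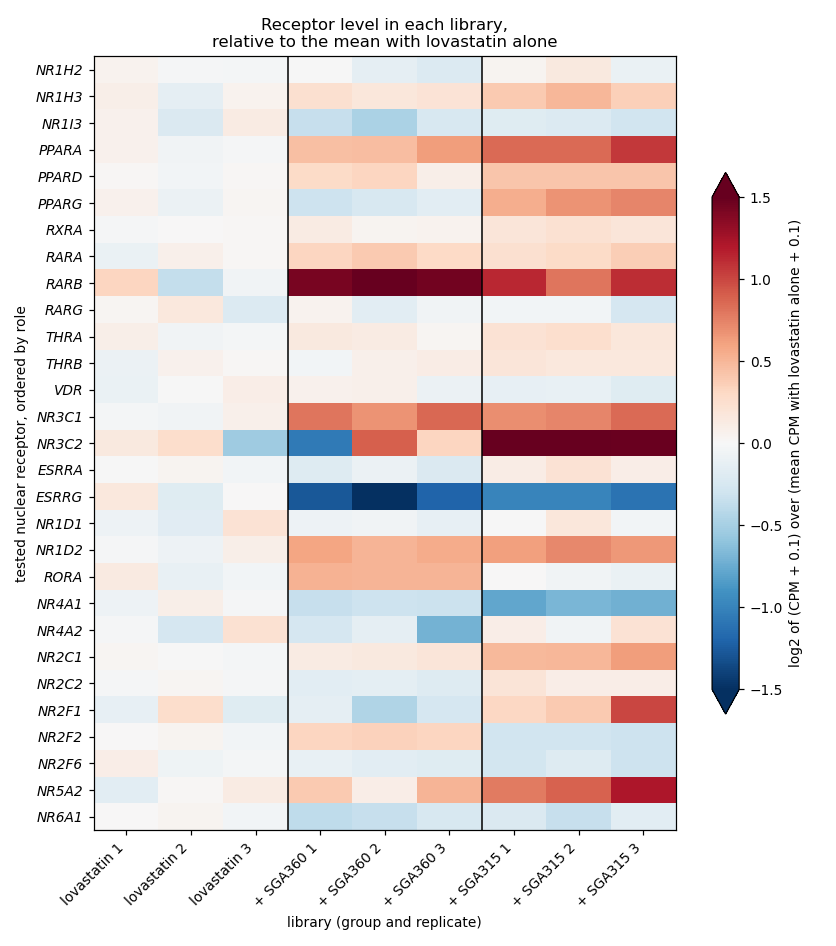
Each row is 1 of the 29 tested receptors and each column 1 of the 9 libraries; colour gives the log2 ratio of its CPM (plus 0.1) to the mean with lovastatin alone, and the scale stops at 1.5 in either direction. RARB, NR3C1, NR1D2 and PPARA are above the lovastatin mean in all 6 ligand libraries and ESRRG is below it in all 6, whereas NR2F2 and RORA separate the SGA360 libraries from the SGA315 libraries.

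The receptors for fatty acids were higher with both ligands, except PPARG, which was called with SGA315 and not with SGA360. PPARA, which drives fatty acid oxidation genes, was at 30.4, 28.1 and 28.7 CPM with lovastatin alone, at 39.7, 40 and 45.1 with SGA360 and at 52.4, 52.5 and 60.5 with SGA315. The 3 groups did not overlap, and the SGA315 libraries were highest. PPARA rose by 0.51 ± 0.0604 (log2 fold change ± SE, 3 libraries a group) with SGA360 (adjusted p = 3.57e-11) and by 0.92 ± 0.0586 with SGA315 (adjusted p = 8.14e-23). The adipogenic receptor PPARG was at 5.86, 5.25 and 5.71 CPM with lovastatin alone, 4.52, 4.75 and 5.03 with SGA360 and 8.22, 9.04 and 9.38 with SGA315. All SGA360 libraries lay below the controls and all SGA315 libraries above them. For SGA360 the log2 change of PPARG was -0.24 ± 0.133 and was not called (adjusted p = 0.106), whereas PPARG rose by 0.66 ± 0.118 with SGA315 (adjusted p = 1.31e-06). PPARD, a more widely expressed receptor for fatty acids, had means of 14.1 ± 0.35, 16.7 ± 1.45 and 18.8 ± 0.0224 CPM (SD, n = 3) in the order lovastatin, SGA360 and SGA315. It rose by 0.25 ± 0.0807 with SGA360 (adjusted p = 0.00477) and by 0.42 ± 0.0803 with SGA315 (adjusted p = 5.76e-06). The call for SGA360 was lost without SGA360 replicate 2 (adjusted p = 0.0649, the highest over 13 alternatives, the lowest being 6.05e-05).

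RXRA, the obligate partner of many of these receptors and the sole retinoid X receptor that passed the filter, had means of 74.9 ± 0.914, 78.7 ± 2.34 and 86 ± 1.51 CPM in the same order. It rose with SGA315 by 0.20 ± 0.0397 (adjusted p = 1.07e-05). For SGA360 its log2 change of 0.07 ± 0.0397 was not called (adjusted p = 0.111), although its libraries did not overlap the controls. Scaled to totals only, RXRA was called for SGA360 too (0.19, adjusted p = 4.37e-05, with a range of 4.37e-05 to 0.602 over 13 alternatives).

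Of the liver X receptors, which sense oxysterols and switch on cholesterol efflux, NR1H3 (LXR alpha) rose and NR1H2 (LXR beta) was not called. NR1H3 was at 28.6, 24.5 and 27.9 CPM with lovastatin alone, at 32, 30.4 and 31.1 with SGA360 and at 35.6, 38.3 and 34.5 with SGA315. The libraries of the 3 groups did not overlap. NR1H3 rose by 0.20 ± 0.0621 with SGA360 (adjusted p = 0.00384) and by 0.42 ± 0.0613 with SGA315 (adjusted p = 1.45e-08). Without lovastatin replicate 2, the lowest control library, the SGA360 call was lost (0.14, adjusted p = 0.0677, with a range of 1.28e-05 to 0.0677 over 13 alternatives). NR1H3 shares 189 of 3505 exonic bases with ACP2 on the opposite strand. ACP2 was not called with either ligand (0.02, adjusted p = 0.739, and -0.07, adjusted p = 0.324). NR1H2 had means of 27.6 ± 0.861, 25.5 ± 1.82 and 28.2 ± 2.43 CPM, and all groups overlapped. Its log2 changes were -0.11 with SGA360 (adjusted p = 0.151) and 0.03 with SGA315 (adjusted p = 0.658). Without SGA360 replicate 1 it was called lower with SGA360 (-0.18, adjusted p = 0.0289), and totals-only scaling made it called higher with SGA315 (0.15, adjusted p = 0.0317). Over 13 alternatives the adjusted p was 0.0289 to 0.928 for SGA360, whereas SGA315 gave 0.0317 to 0.993.

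NR1I3, the constitutive androstane receptor of drug metabolism, had means of 10.1 ± 1.24 CPM with lovastatin alone, 7.9 ± 0.664 with SGA360 and 8.63 ± 0.336 with SGA315. It fell by 0.38 on the log2 scale with SGA360 (SE 0.106, adjusted p = 0.00159) and by 0.24 with SGA315 (SE 0.106, adjusted p = 0.0426). The SGA315 libraries overlapped the controls, and that call was lost in DESeq2 (adjusted p = 0.106), under totals-only scaling (0.33), without lovastatin replicate 1 (0.101) or 3 (0.175) and without SGA315 replicate 3 (0.108), the adjusted p ranging from 0.00881 to 0.33 over 13 alternatives. In GENCODE 29, 661 of the 2051 exonic bases of NR1I3 overlap TOMM40L on the opposite strand. TOMM40L had 5918 counts over the 9 libraries against 1178 for NR1I3, and it fell with both ligands (-0.24, adjusted p = 2.27e-05, and -0.31, adjusted p = 1.8e-07). The strand setting of the counting is not given in the sources used here, so reads of these genes cannot be told apart.

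RARB showed the largest rise among the receptors tested for SGA360. Its values were 3.3, 2.03 and 2.53 CPM with lovastatin alone, 7.17, 9.79 and 7.31 with SGA360, and 5.85, 4.63 and 5.75 with SGA315. Each group was separate from the others. RARB shares 28 of its 3216 exonic bases with TOP2B on the opposite strand, and TOP2B, with 18497 counts against 727, rose too (0.09, adjusted p = 0.0183, and 0.27, adjusted p = 8.21e-11). Counting by strand is not given in the sources used here, and without it reads of the shared bases cannot be told apart. RARB rose by 1.63 ± 0.167 with SGA360, or 3.09-fold (adjusted p = 1.13e-14), and by 1.03 ± 0.178 with SGA315, or 2.05-fold (adjusted p = 3.14e-07). Changes called and of at least 2-fold made up 4.56% of all genes for SGA360 and 6.94% for SGA315. Of the 29 receptors, RARB and ESRRG met both conditions with SGA360, and RARB, ESRRG and the rarely counted NR3C2 with SGA315.

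RARA, the retinoic acid receptor alpha, was at 27.5, 31.1 and 29.7 CPM with lovastatin alone. All ligand libraries were above those values, at 36.9, 38.8 and 36.2 with SGA360 and at 34.7, 36 and 38.1 with SGA315. RARA rose by 0.35 ± 0.0581 (adjusted p = 3.64e-07) and by 0.30 ± 0.0593 (adjusted p = 8.84e-06). On the opposite strand, 556 of its 4162 exonic bases overlap RARA-AS1 and 291 overlap AC080112.3, which has no value here. RARA-AS1, with 314 counts against 4569, was not called with SGA360 (0.23, adjusted p = 0.329) and rose with SGA315 (0.51, adjusted p = 0.0212). RARG, the gamma form, was not called with either ligand (-0.05, adjusted p = 0.617, and -0.09, adjusted p = 0.304), and its groups overlapped at means of 20.1 ± 2.52, 19.3 ± 1.42 and 18.7 ± 1.5 CPM. Without lovastatin replicate 3 RARG was called lower with SGA315 (-0.20, adjusted p = 0.0315, with a range of 0.0315 to 0.891 over 13 alternatives).

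The thyroid hormone receptors rose with SGA315 by small amounts. THRA had means of 37.3 ± 1.95, 40 ± 1.76 and 43.2 ± 1.19 CPM, and THRB of 36.3 ± 1.95, 37.6 ± 2.05 and 40.7 ± 0.363 CPM. For SGA315 the rises were 0.21 ± 0.0536 for THRA (adjusted p = 4.42e-04) and 0.17 ± 0.0549 for THRB (adjusted p = 0.00547). The THRB call was lost in DESeq2 (adjusted p = 0.0569) and without lovastatin replicate 1 (0.106), with a range of 5.16e-06 to 0.106 over 13 alternatives. For SGA360 the log2 changes were 0.10 (adjusted p = 0.087) and 0.05 (adjusted p = 0.446), neither of them called. Scaled to totals only, THRA (adjusted p = 3.59e-04) and THRB (0.00799) were called higher with SGA360, and THRA also without SGA360 replicate 3 (0.0423). The highest adjusted p over 13 alternatives was 0.363 for THRA and 0.921 for THRB. VDR, the vitamin D receptor, had means of 15.5 ± 1.07, 15.7 ± 0.961 and 14.1 ± 0.326 CPM. It was not called with SGA360 (0.03, adjusted p = 0.766) or with SGA315 (-0.14, adjusted p = 0.134). Without lovastatin replicate 1, VDR was called lower with SGA315 (-0.20, adjusted p = 0.0475, with a range of 0.0475 to 0.854 over 13 alternatives).

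**Figure D2:**
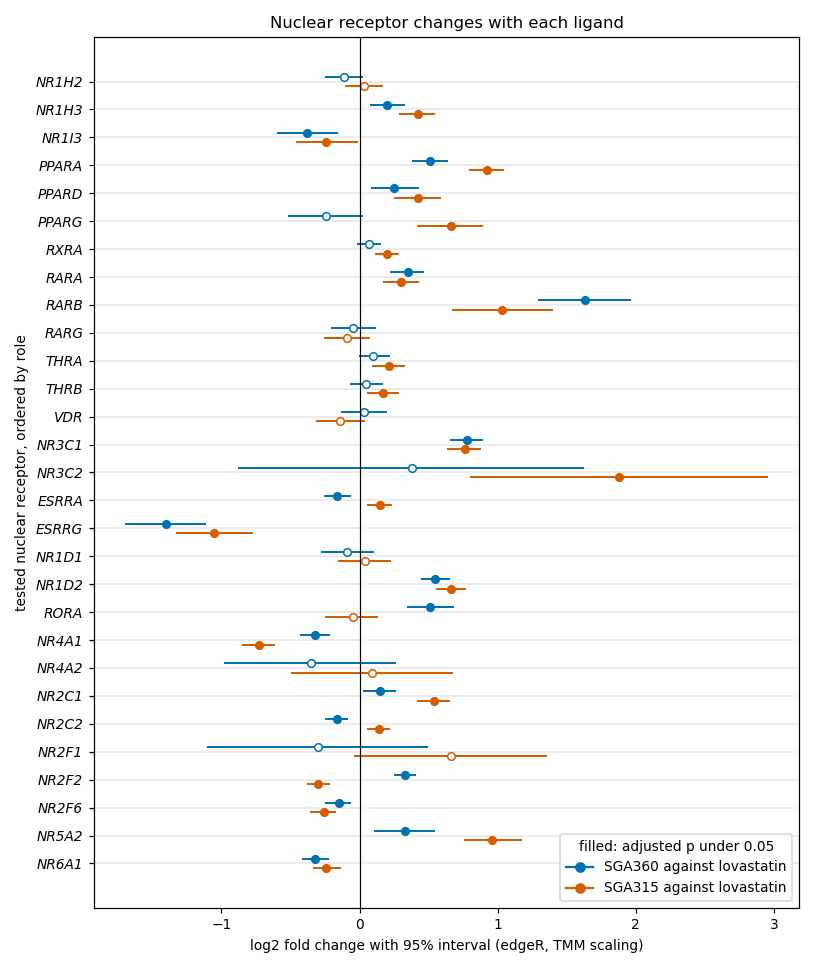
Points are log2 fold changes of the 29 tested receptors against lovastatin alone, bars are 95% intervals, and filled points have an adjusted p under 0.05. RARB (1.63 and 1.03) and ESRRG (-1.40 and -1.05) lie farthest from 0, apart from NR3C2 with SGA315 (1.88). NR3C2 passed the filter only through its SGA315 counts, so that point is a description. The widest intervals, those of NR3C2, NR4A2 and NR2F1, belong to receptors with few counts.

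NR3C1, the glucocorticoid receptor, was higher by a similar amount with each ligand. It was at 30.7, 30.2 and 32.9 CPM with lovastatin alone, 54.8, 49.8 and 57 with SGA360 and 50.6, 52.2 and 56.3 with SGA315. The lowest ligand library was above the highest control. NR3C1 rose by 0.78 ± 0.0555, or 1.71-fold, with SGA360 (adjusted p = 3.48e-20) and by 0.76 ± 0.0563, or 1.69-fold, with SGA315 (adjusted p = 1.57e-19).

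NR3C2, the mineralocorticoid receptor, was counted rarely. It had 4, 4 and 2 counts with lovastatin alone, 1, 9 and 4 with SGA360, and 13, 13 and 11 with SGA315. Every SGA315 library had more counts than any other library, while SGA360 and the controls overlapped. The fitted log2 change was 1.88 ± 0.537 with SGA315 (adjusted p = 3.97e-04) and 0.38 ± 0.623 with SGA360 (adjusted p = 0.599). NR3C2 reached the filter's level in all 3 SGA315 libraries and in 0 of the others, so it had to be higher there to be tested, and these values are given as a description.

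The estrogen-related receptors are orphan receptors that promote mitochondrial energy metabolism. ESRRG was at 9.62, 7.58 and 8.62 CPM with lovastatin alone, at 3.5, 2.72 and 3.7 with SGA360 and at 4.27, 4.28 and 3.93 with SGA315. All ligand libraries lay below all controls. ESRRG fell by 1.40 on the log2 scale with SGA360 (SE 0.142, 2.64-fold, adjusted p = 2.47e-14) and by 1.05 with SGA315 (SE 0.135, 2.07-fold, adjusted p = 1.2e-10). ESRRA, in contrast, lay below the controls with one ligand and above them with the other. It was at 74.6, 77 and 72.4 CPM with lovastatin alone, at 65.3, 70.2 and 64.2 with SGA360 and at 80.7, 86.9 and 80 with SGA315. The 3 groups were separate. ESRRA fell by 0.16 with SGA360 (SE 0.043, adjusted p = 9.36e-04) and rose by 0.15 ± 0.042 with SGA315 (adjusted p = 0.00166). Scaling to totals only ended the SGA360 call (-0.05, adjusted p = 0.347, with a range of 8.41e-05 to 0.347 over 13 alternatives), and leaving out SGA315 replicate 2 ended the SGA315 call (0.09, adjusted p = 0.0629, with a range of 8.68e-08 to 0.0629). ESRRA shares 284 of 2448 exonic bases with TRMT112 on the opposite strand, which was not called with either ligand (0.07, adjusted p = 0.115, and -0.00, adjusted p = 0.959).

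Among the receptors of the daily clock, NR1D2 rose with both ligands and RORA with SGA360. NR1D2, which represses BMAL1 in the clock loop, was at 40.5, 38.9 and 43.7 CPM with lovastatin alone, 61.7, 58.4 and 60.5 with SGA360 and 63, 67.7 and 64.3 with SGA315. No ligand library overlapped the controls. NR1D2 rose by 0.55 ± 0.049 (adjusted p = 7.89e-16) with SGA360 and by 0.66 ± 0.049 (adjusted p = 1.67e-19) with SGA315. Its 2 E-boxes are shown in the window above. RORA, which activates the genes that REV-ERB receptors repress, was at 13.2, 11.1 and 11.7 CPM with lovastatin alone and at 17.3, 17.1 and 17.1 with SGA360, while SGA315 gave 12, 11.6 and 11.2. The SGA360 libraries stood above all others and the SGA315 libraries overlapped the controls. RORA rose by 0.51 ± 0.0839 with SGA360 (adjusted p = 1.97e-07) and changed by -0.05 ± 0.0923 with SGA315, which was not called (adjusted p = 0.629). NR1D1 (REV-ERB alpha) had means of 12.6 ± 1.85, 11.9 ± 0.339 and 13 ± 0.996 CPM and was not called (-0.09, adjusted p = 0.433, and 0.04, adjusted p = 0.738). NR1D1 and THRA share 263 exonic bases on opposite strands.

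NR4A1, an immediate-early receptor induced by growth and stress signals, fell with both ligands. It was at 50.1, 56.2 and 52.1 CPM with lovastatin alone, 41.5, 42.7 and 42.3 with SGA360 and 30.7, 32.7 and 32.1 with SGA315. The 3 groups did not overlap, with SGA315 lowest. NR4A1 fell by 0.32 on the log2 scale with SGA360 (SE 0.0495, adjusted p = 5.8e-08) and by 0.73 with SGA315 (SE 0.0538, adjusted p = 1.16e-19). Of the 4053 exonic bases of NR4A1, 754 overlap the annotated gene AC025259.3 on the opposite strand, which has no value here. NR4A2, a related factor with 8 to 20 counts per library, was not called (-0.35 ± 0.308, adjusted p = 0.313, and 0.09 ± 0.291, adjusted p = 0.795), and its groups overlapped the controls.

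**Figure D3:**
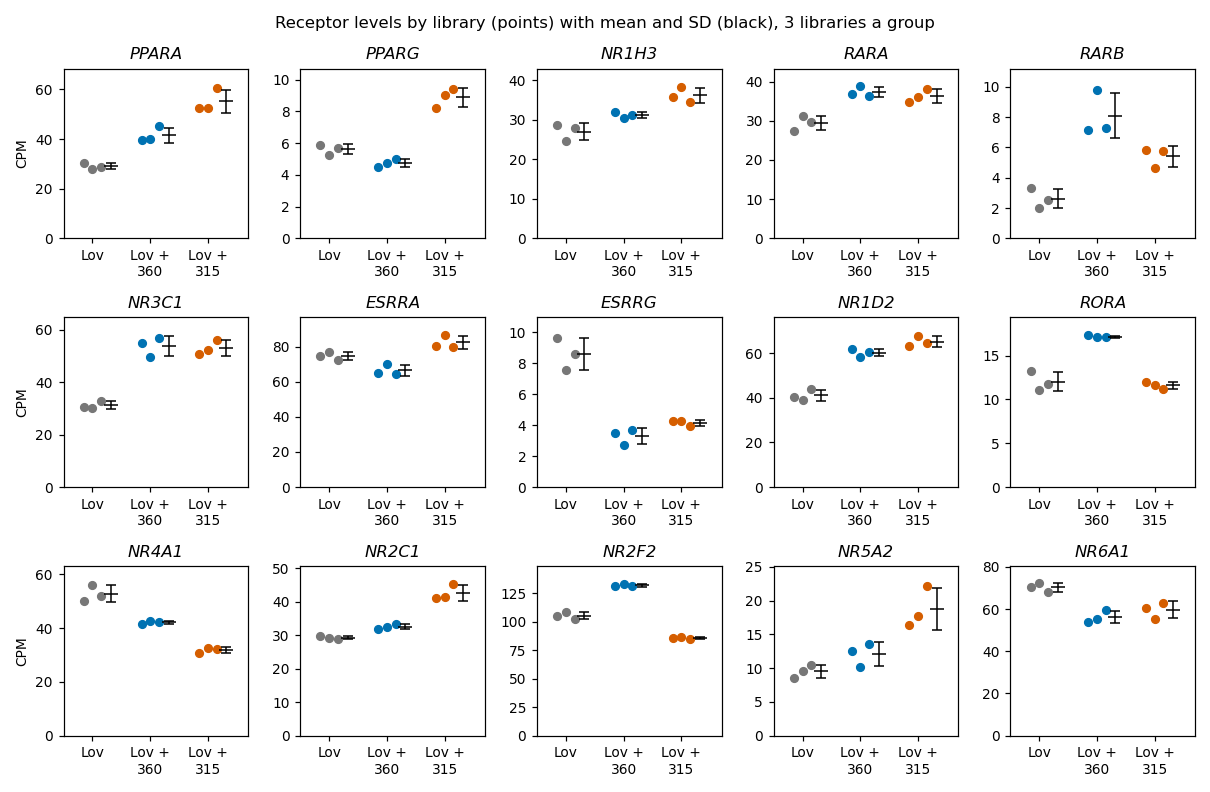
Points are the CPM of 15 receptors in each library, with the mean and SD of the 3 libraries of a group in black; Lov is lovastatin alone, the next group adds SGA360 and the last adds SGA315, and every axis starts at 0. PPARA, NR1H3 and NR2C1 step upward from lovastatin to SGA360 to SGA315, NR4A1 steps downward, and NR2F2 is highest with SGA360 and lowest with SGA315.

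The other orphan receptors moved in both directions. NR5A2, known as LRH-1, which supports steroid and bile acid genes in gut and liver, was at 8.55, 9.61 and 10.4 CPM with lovastatin alone, 12.5, 10.2 and 13.6 with SGA360 and 16.4, 17.7 and 22.2 with SGA315. The SGA315 libraries were above all others, and the lowest SGA360 library fell within the control range. NR5A2 rose by 0.33 ± 0.109 with SGA360 (adjusted p = 0.00714) and by 0.96 ± 0.102, or 1.95-fold, with SGA315 (adjusted p = 2.25e-13). The SGA360 call was lost without lovastatin replicate 1 (0.23, adjusted p = 0.0906) or SGA360 replicate 3 (0.25, adjusted p = 0.0641), within a range of 3.31e-04 to 0.0906 over 13 alternatives.

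NR2F2 (COUP-TFII), a repressor active in development, was at 105, 108 and 102 CPM with lovastatin alone. SGA360 gave 131, 133 and 131 CPM and SGA315 gave 85.7, 86.1 and 84.5. Every SGA360 library was above the controls and every SGA315 library below them. NR2F2 rose by 0.33 ± 0.0345 with SGA360 (adjusted p = 4.48e-13) and fell by 0.30 with SGA315 (SE 0.0374, adjusted p = 1.58e-10). The related NR2F6 fell with each, by 0.15 (SE 0.0418, adjusted p = 0.00121) and by 0.26 (SE 0.0431, adjusted p = 1.95e-07), from 82.1 ± 4.89 to 73.9 ± 2.02 and 68.5 ± 2.81 CPM. Scaled to totals only, NR2F6 was not called for SGA360 (-0.04, adjusted p = 0.429, with a range of 2.56e-04 to 0.429 over 13 alternatives). Of its 2404 exonic bases, 221 overlap AC010646.1 on the same strand, which has no value here. Smaller overlaps with other genes, of 19 to 82 exonic bases, lie in VDR, NR2F2 and RORA. NR2F1 (COUP-TFI), at 7 to 19 counts per library, was not called with SGA360 (-0.30, adjusted p = 0.51) or SGA315 (0.66, adjusted p = 0.0782). Under scaling to totals only it was called with SGA315 (0.78, adjusted p = 0.0353, with a range of 0.0353 to 0.374 over 13 alternatives). NR2F1 passed the filter only through its SGA315 counts, so its SGA315 values, this call among them, are a description.

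The testicular receptors NR2C1 and NR2C2 compete with other receptors for direct repeat sites. NR2C1 was at 29.9, 29.2 and 28.8 CPM with lovastatin alone, 31.8, 32.4 and 33.3 with SGA360 and 41, 41.4 and 45.3 with SGA315. The groups were separate, and the step to SGA315 was the larger. NR2C1 rose by 0.15 ± 0.0586 with SGA360 (adjusted p = 0.0254) and by 0.54 ± 0.0567 with SGA315 (adjusted p = 3.98e-13). The SGA360 call was lost in 8 of 13 alternatives: without any 1 of the 6 libraries compared (lovastatin 1, 2 and 3 left out: adjusted p = 0.0549, 0.057 and 0.124, SGA360 1, 2 and 3: 0.0547, 0.0814 and 0.0727), in DESeq2 (0.108) and with no filter (0.0646), within a range of 9.74e-05 to 0.124. NR2C2 was at 85.7, 88.5 and 86 CPM with lovastatin alone, 77.9, 78.1 and 76 with SGA360 and 99.3, 93.1 and 93.3 with SGA315. It fell by 0.16 with SGA360 (SE 0.0392, adjusted p = 2.37e-04) and rose by 0.14 ± 0.0384 with SGA315 (adjusted p = 0.00131). Under scaling to totals only the SGA360 call of NR2C2 was lost (-0.05, adjusted p = 0.268, with a range of 6.18e-05 to 0.268), and without SGA315 replicate 1 the SGA315 call was lost (0.09, adjusted p = 0.0618, with a range of 2.22e-08 to 0.0618). NR2C2 shares 756 of 8561 exonic bases with MRPS25 on the opposite strand, and MRPS25 fell with SGA360 (-0.44, adjusted p = 1.14e-13) and was not called with SGA315 (-0.09, adjusted p = 0.0594). NR6A1, the germ cell nuclear factor that silences pluripotency genes, fell by 0.32 with SGA360 (SE 0.0455, adjusted p = 6.53e-09) and by 0.24 with SGA315 (SE 0.0457, adjusted p = 6.5e-06). Its 70.3, 72.3 and 68.3 CPM with lovastatin alone became 54.1, 55.5 and 59.5 with SGA360 and 60.7, 55.2 and 63 with SGA315, all below the controls.

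SGA360 and SGA315 were given at the same dose and for the same time, so their libraries were compared directly as 1 pair of compounds. Of the 29 receptors, 5 were higher with SGA360, 11 were lower and 13 were not called, or 55.2% called against 42.7% of all 14678 genes tested. Those lower with SGA360 made up 37.9%, against 20.9% of all genes, and those higher 17.2%, against 21.8%. The median difference was -0.13 on the log2 scale over the receptors and -0.01 over all genes. CPM did not overlap for 23 of the 29 (79.3%), against 49.1% of all genes. NR3C2 and NR2F1, which passed the filter only through their SGA315 counts, are among these 23. They also enter the share called and the median, so these values are descriptions too.

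Higher with SGA360 than with SGA315 were NR2F2 (0.63 ± 0.036, adjusted p = 6.26e-24), RARB (0.59 ± 0.132, adjusted p = 1.34e-04), RORA (0.57 ± 0.0852, adjusted p = 6.98e-08) and NR4A1 (0.41 ± 0.0552, adjusted p = 5.28e-09). In each of these the 3 SGA360 libraries lay above the 3 SGA315 libraries. The fifth, NR2F6, differed by 0.11 ± 0.0434 (adjusted p = 0.0331). Its call was lost in DESeq2 (adjusted p = 0.079), without SGA360 replicate 1 (0.163) or 2 (0.0537) and without SGA315 replicate 1 (0.107) or 3 (0.12), within a range of 0.0114 to 0.163 over 13 alternatives.

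Receptors of fatty acid and sterol metabolism were among the 11 lower with SGA360 than with SGA315. PPARG differed by -0.90 ± 0.122 (1.86-fold, adjusted p = 3.65e-09), NR5A2 by -0.64 ± 0.0943 (1.56-fold, adjusted p = 4.64e-08) and PPARA by -0.41 ± 0.0531 (1.33-fold, adjusted p = 1.27e-09). These libraries did not overlap. Smaller differences were those of NR2C1 (-0.39 ± 0.0546, adjusted p = 1.41e-08), ESRRA (-0.31 ± 0.0424, adjusted p = 9.79e-09), NR2C2 (-0.30 ± 0.0387, adjusted p = 1.41e-09), NR1H3 (-0.21 ± 0.0587, adjusted p = 0.00201) and RXRA (-0.13 ± 0.0389, adjusted p = 0.00559). The fitted difference of NR3C2, tested only because of its SGA315 counts and so a description, was -1.50 ± 0.473 (adjusted p = 0.00382). Without SGA360 replicate 1, which had 1 count of NR3C2, the difference was -0.99 (adjusted p = 0.078), and the adjusted p ranged from 9.66e-04 to 0.078 over 13 alternatives.

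The remaining calls in this direction depended on the method as well as on single libraries. NR2F1 differed by -0.96 ± 0.362 (adjusted p = 0.0212), and its call was lost in DESeq2 (adjusted p = 0.108), without SGA360 replicate 2 (0.091) and without SGA315 replicate 3 (-0.71, adjusted p = 0.168), within a range of 0.0179 to 0.168 over 13 alternatives. NR2F1 reached the filter's level in 3 SGA315 libraries, 1 lovastatin library and 0 SGA360 libraries, so this difference too is a description. NR1D2 differed by -0.11 ± 0.0447 (adjusted p = 0.0375), and its call was lost with RLE scaling (adjusted p = 0.0586), no filter (0.0657), DESeq2 (0.18), and without SGA360 replicate 2 (0.181) or 3 (0.0573) or SGA315 replicate 2 (0.188), within a range of 0.0283 to 0.188 over 13 alternatives.

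**Figure D4:**
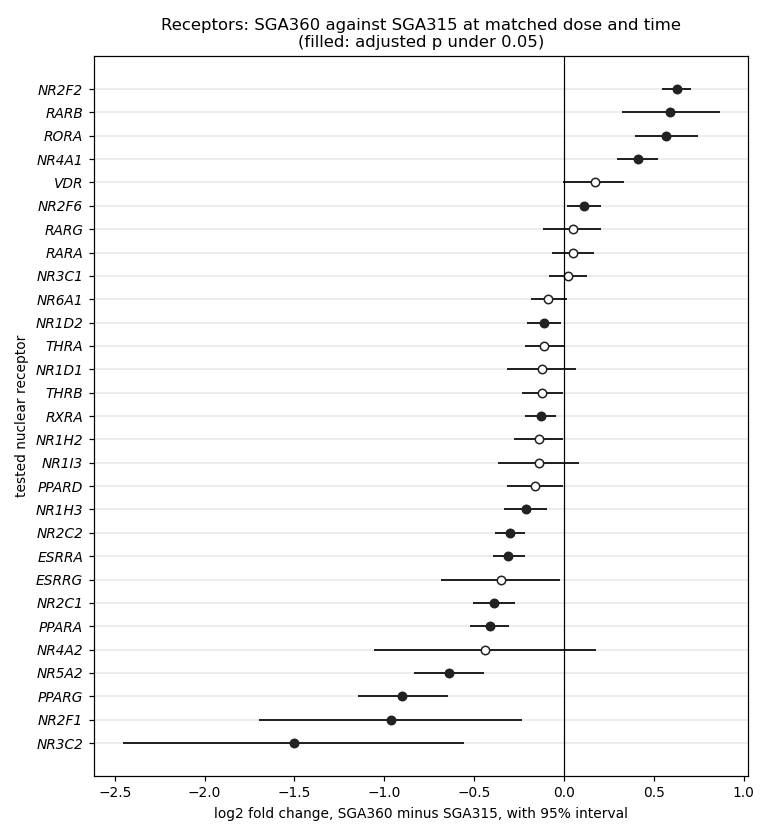
Points are log2 fold changes of SGA360 against SGA315 for the 29 tested receptors, sorted, with 95% intervals; filled points have an adjusted p under 0.05. NR2F2, RARB, RORA and NR4A1 stand to the right, higher with SGA360, and PPARG, NR5A2 and PPARA stand to the left with intervals clear of 0. NR3C2 and NR2F1 lie farthest to the left, with wide intervals. They passed the filter only through their SGA315 counts, so their filled points are descriptions.

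No difference between the compounds was called for NR3C1 (0.02, 95% interval -0.08 to 0.12) or RARA (0.05, -0.06 to 0.16), which bounds both differences but does not show that the compounds act alike. For ESRRG the difference was -0.35 (interval -0.68 to -0.03, adjusted p = 0.0729), for NR4A2 -0.44 (-1.05 to 0.17) and for NR1I3 -0.14 (-0.36 to 0.08). PPARD (-0.16, -0.31 to -0.01), VDR (0.17, 0.00 to 0.33), NR1D1 (-0.12, -0.31 to 0.06), RARG (0.05, -0.11 to 0.20) and THRA (-0.11, -0.21 to -0.00) were not called either. NR1H2 (-0.14, -0.27 to -0.01, adjusted p = 0.077), THRB (-0.12, -0.23 to -0.01, adjusted p = 0.0677) and NR6A1 (-0.09, -0.18 to 0.01, adjusted p = 0.138) were not called with all libraries. Leaving out 1 library made a call for NR1H2 (without SGA360 replicate 1, adjusted p = 0.0251, or SGA315 replicate 3, 0.0157), for THRB (without SGA360 replicate 3, 0.0412) and for NR6A1 (without SGA315 replicate 2, 0.02). The highest adjusted p over the 13 alternatives was 0.396, 0.35 and 0.483 in that order.

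Family members outside the 38 were looked up from a further list of 10, of which 2 passed the filter. HNF4A, a receptor that maintains enterocyte and hepatocyte identity, was at 460, 455 and 454 CPM with lovastatin alone, 280, 262 and 263 with SGA360 and 450, 434 and 431 with SGA315. All SGA360 libraries were far below the rest. HNF4A fell by 0.77 with SGA360 (SE 0.0281, adjusted p = 6.15e-35) and by 0.06 with SGA315 (SE 0.0271, adjusted p = 0.0479). The SGA315 value turned to 0.06 under totals-only scaling (adjusted p = 0.0351) and was not called without lovastatin replicate 2 (0.0686) or SGA315 replicate 3 (0.122), within a range of 0.00778 to 0.122 over 13 alternatives, so its direction depends on the scaling. NR2E1, a receptor known from neural stem cells, rose from 3.36 ± 0.232 to 6.88 ± 0.363 CPM with SGA360 (1.02, adjusted p = 3.6e-09) and to 8.55 ± 1.14 CPM with SGA315 (1.33, adjusted p = 1.51e-13). HNF4G did not pass the filter, with 4 to 15 counts per library.

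The cofactors through which the receptors act changed by less than 1.5-fold. The counts here and in the target lists below stand beside those of all tested genes. With SGA360 31.4% of all genes rose and 31.4% fell, and with SGA315 36% rose and 33.2% fell. Between the ligands 21.8% were higher and 20.9% lower with SGA360. Of 10 tested coactivators 4 rose and 4 fell with SGA360, and 4 rose and 2 fell with SGA315. NCOA3, an acetyltransferase coactivator, rose by 0.24 (adjusted p = 1.39e-11) and 0.14 (adjusted p = 1.82e-05), while PPARGC1B, a partner of the estrogen-related receptors, fell by 0.45 (adjusted p = 6.64e-12) and 0.17 (adjusted p = 0.00183, but 0.353 under totals-only scaling, with a range of 2.27e-04 to 0.353 over 13 alternatives). PPRC1, a relative of PPARGC1B, fell by 0.25 and 0.42 (adjusted p = 1.11e-08 and 7.83e-16). Of 9 corepressors 1 rose and 3 fell with SGA360, and 2 rose and 5 fell with SGA315. NRIP1, which represses many ligand-bound receptors, rose by 0.36 and 0.46 (adjusted p = 7.54e-11 and 7.17e-15). TBL1X fell by 0.19 and 0.23 (adjusted p = 1.31e-06 and 1.02e-08). Under totals-only scaling 4 coactivators were higher and 3 lower with SGA360 against 7 and 1 with SGA315, and the corepressors split 4 to 2 and 2 to 2, so these splits depend on the scaling.

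Known target genes were read beside their receptors. PPARA rose with SGA360, and of 9 tested PPAR targets none was called higher and 6 fell (66.7%, against 31.4% of all genes), at a median of -0.34. CPT1A, the carrier step of fatty acid oxidation, fell from 20.4 ± 0.38 CPM to 12.4 ± 1.27 under SGA360 (-0.72, adjusted p = 3.36e-12). With SGA315, 4 of the 9 rose and 3 fell (44.4% and 33.3%, against 36% and 33.2% of all genes), at a median of 0.04. CPT1A fell there too (-0.65, adjusted p = 9.47e-11), whereas FABP1, the fatty acid binding protein of enterocytes and liver, rose by 0.93 (adjusted p = 1.21e-23) after a fall of 0.34 with SGA360 (adjusted p = 9.11e-06). In the direct comparison 7 of the 9 were lower with SGA360 (77.8%, against 20.9% of all genes) and none was called higher. In the SGA360 comparison and the direct one, 0 PPAR targets were higher at an unadjusted p under 0.05 in edgeR, and 0 were called higher by DESeq2. PPAR targets split 1 higher to 6 lower with SGA360 and 5 to 2 with SGA315 under totals-only scaling.

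Of 5 tested liver X receptor targets, 1 rose with each ligand, while 1 fell with SGA360 and 2 with SGA315. ABCA1, the cholesterol efflux pump, rose by 0.69 and 0.72 (adjusted p = 4.05e-13 and 1.06e-13), LPCAT3, a phospholipid-remodelling enzyme, fell by 0.52 and 0.93 (adjusted p = 2.59e-24 and 6.31e-37), and SREBF1 fell with SGA315 by 0.68 (adjusted p = 9.87e-19). Among 5 targets of NR1I2 and NR1I3, 1 rose and 3 fell with SGA360, and 2 rose and 2 fell with SGA315. The efflux pump ABCC2 fell by 0.64 and 0.43 (adjusted p = 7.81e-31 and 2.96e-22), and CYP3A5 rose by 1.08 with SGA315 (adjusted p = 2e-09). UGT1A1 was counted lower with both (-1.10 and -0.34, adjusted p = 5.72e-38 and 2.04e-14), but its exons are shared with other genes of its locus, so its own value is uncertain. Of 3 bile acid receptor targets none was called with SGA360 (adjusted p = 0.274 to 0.882 for the 3, with none at an unadjusted p under 0.05 in edgeR and none called by DESeq2), and SLC51B, a bile acid exporter subunit, fell with SGA315 (-0.52, adjusted p = 1.31e-04). FGF19, the enterokine of bile acid control, was not called with SGA315 (0.54, adjusted p = 0.0989), but was under totals-only scaling (0.66, adjusted p = 0.0414, with a range of 0.0414 to 0.36 over 13 alternatives). In that scaling liver X receptor targets were 2 higher and 1 lower with SGA360 and 1 and 2 with SGA315, and those of NR1I2 and NR1I3 were 1 and 3, then 3 and 2.

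Vitamin and steroid receptor targets were mixed too. The calcium channel TRPV6, a vitamin D target of the gut, rose from 0.545 ± 0.184 to 6.16 ± 1.27 CPM with SGA360 (3.47, adjusted p = 4.09e-21) and reached 4.28 ± 0.372 with SGA315 (2.93, adjusted p = 5.23e-16), although VDR itself was not called. CLDN2, a pore-forming tight junction protein in the same list, fell by 1.24 and 1.26 (adjusted p = 1.04e-12 and 1.2e-12), and of the 5 tested targets 1 rose and 3 fell with SGA360, and 1 rose and 4 fell with SGA315. Of 7 retinoic acid targets 3 rose and 3 fell with SGA360, and 1 rose and 4 fell with SGA315. DHRS3, a retinal reductase, rose by 0.26 and 0.43 (adjusted p = 3.77e-04 and 1.76e-08), and the crosslinking enzyme TGM2 fell by 0.52 and 1.28 (adjusted p = 2.11e-21 and 3.43e-40). CRABP2, which delivers retinoic acid to its receptors, fell by 0.60 and 1.01 (adjusted p = 7.68e-21 and 5.17e-31). Of 7 glucocorticoid targets 2 rose and 3 fell with SGA360, and 1 rose and 5 fell with SGA315. The kinase SGK1 fell by 1.04 and 0.78 (adjusted p = 5.3e-22 and 6.38e-17), and FKBP5, a chaperone partner of the glucocorticoid receptor, fell by 0.59 with SGA315 (adjusted p = 5.86e-14). The direction of 2 of these splits depends on the scaling, that of the retinoic acid targets with SGA315 and that of the glucocorticoid targets with SGA360. Under totals-only scaling the retinoic acid targets were 4 higher and 3 lower with SGA360 and 3 higher and 2 lower with SGA315, and the glucocorticoid targets 3 and 2, then 1 and 4. Vitamin D targets were then 1 higher and 2 lower with SGA360, and 1 and 3 with SGA315.

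Targets of the clock receptors and of the estrogen-related receptors were counted in the same way. Of 6 tested clock targets 4 rose with SGA360 (66.7%, against 31.4% of all genes), at a median of 0.41. None was called lower there (0 at an unadjusted p under 0.05 in edgeR, 0 called by DESeq2). With SGA315 3 rose (50%, against 36% of all genes) and 1 fell, at a median of 0.30. NFIL3, a repressor in the clock output, rose from 17.1 ± 0.846 to 36 ± 2.14 and 36.1 ± 4.16 CPM (1.07 in both, adjusted p = 1.47e-21 and 1.25e-21). BMAL1 rose by 0.64 and 0.51 (adjusted p = 2.73e-10 and 2.38e-07), and CLOCK by 0.36 and 0.44 (adjusted p = 2.02e-06 and 1.89e-08). All 8 targets of the estrogen-related receptors fell with SGA360 (100%, against 31.4% of all genes), at a median of -0.27. With SGA315 7 of 8 fell (87.5%, against 33.2% of all genes), at a median of -0.29. The list holds ESRRA and PPARGC1B themselves, and ESRRA was the 1 that rose. The respiratory chain genes CYCS (-0.56 and -0.66, adjusted p = 3.42e-25 and 8.67e-29) and COX6A1 (-0.31 and -0.38, adjusted p = 2.91e-13 and 1.86e-16) and the ATP synthase gene ATP5F1B (-0.48 and -0.47, adjusted p = 2.88e-24 and 1.11e-23) were among them. Under totals-only scaling 5 of these 8 were still called lower with each ligand, at medians of -0.15 and -0.17, and of the clock targets 5 and 3 were called higher and none lower.

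**Figure D5:**
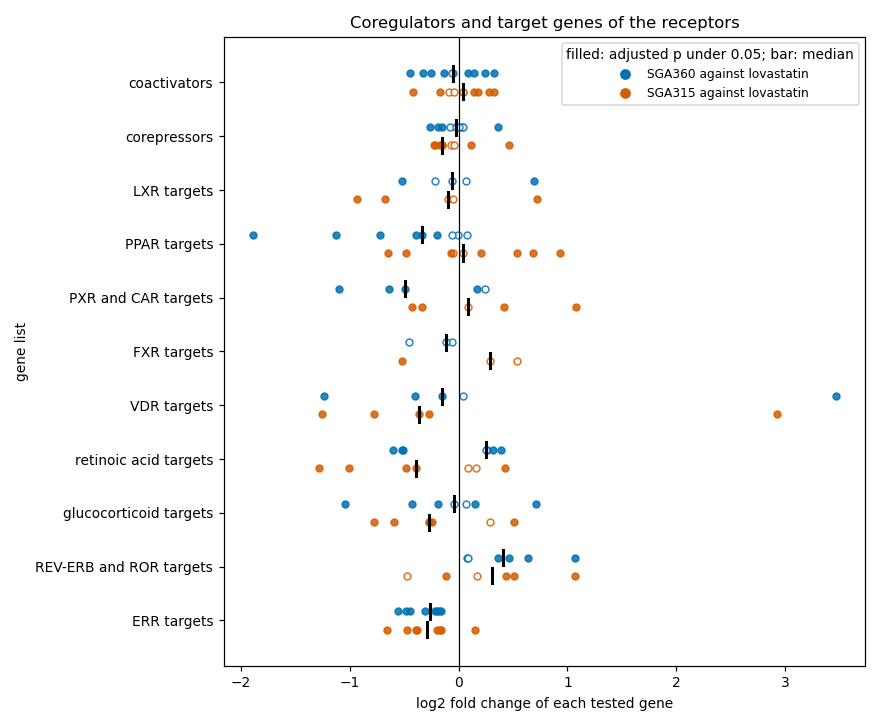
Each point is the log2 fold change of 1 tested cofactor or target gene against lovastatin alone, filled where the adjusted p is under 0.05, with the list's median as a bar. The targets of the estrogen-related receptors lie left of 0 apart from ESRRA with SGA315, the REV-ERB and ROR targets lie mostly to the right, and TRPV6 is the point farthest to the right in the vitamin D list.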

How the data were processed

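RNA-seq was compared in 9 libraries, 3 per group, with group and replicate number from the labels. The table deposited by the authors holds raw counts per RefSeq transcript and library. The submitters' processing notes name TopHat2 2.0.13, HTSeq 0.5.4p3 and hg19. Neither the strand setting nor the annotation release is given in the sources used here. Of 65325 entries, 64346 matched the RefSeq table of GRCh38.p14 and 545 matched GENCODE 29. The 434 unmatched entries held 0.25% of counts and were left out. Transcripts of a gene repeat shared reads (the sum over all entries was 2.98 times that over 1 entry per gene), so a gene was represented by its entry with the highest total. Where genes had identical counts (23 sets) a single gene was retained and 43 were removed, leaving 27677. Genes with few or no counts were exempt from this step and were all kept. No 2 libraries held identical counts.

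The test was the quasi-likelihood F test of edgeR 4.0.16 in R 4.3.3, after TMM scaling and edgeR's filterByExpr at a minimum count of 10 and a minimum total of 15, with no covariate and all 9 libraries in a joint fit. Benjamini-Hochberg adjustment ran over the 14678 genes that passed. Every adjusted p is from this fit unless another is named. Log2 fold changes and their SE were computed here from the deposited counts. Groups were said not to overlap where their TMM-scaled CPM values did not. Alternatives were RLE scaling, totals only, no filter, DESeq2 1.42.0, only the compared groups, the lowest accession, a replicate block and leaving out each library. The test was also run on simulated counts with a small share of genes changed and the same spread for every gene. The share called in the data was far larger, so that run does not show how the test behaves here. All tested members were named, and of each cofactor or target list up to 3 genes with the smallest p. A few genes under this rule are not reported here. The members and lists were chosen with earlier results of these data known.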

Additional observations from a re-analysis of the deposited data

How the results depend on the processing

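Of 87 receptor changes (29 receptors, 3 comparisons), 52 kept their direction and their side of the threshold under every alternative run. No called change reversed its sign. The 22 values that reversed belong to changes that were not called, and the cause was not tested. Scaled to totals only, the log2 change turned for NR1H2 (0.01), RARG (0.07) and NR1D1 (0.03) with SGA360 and for RARG (0.03) and RORA (0.07) with SGA315. Leaving out each library in turn, the SGA360 change ranged from -0.16 to 0.03 for RARG, -0.01 to 0.08 for THRB, -0.04 to 0.07 for VDR (with -0.00 and -0.02 between), -0.42 to 0.88 for NR3C2 and -0.16 to 0.03 for NR1D1. The SGA315 change ranged from -0.04 to 0.09 for NR1H2, -0.04 to 0.15 for NR1D1 (with -0.02 between), -0.10 to 0.01 for RORA and -0.02 to 0.22 for NR4A2. The difference between the ligands ranged from -0.02 to 0.10 for RARG and from -0.02 to 0.08 for NR3C1.

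The count of receptors lower with SGA360 moved from 7 to 4 with scaling to totals only, while all genes called lower went from 4604 to 3140 of 14678. Leaving out 1 library gave 9 to 10 receptors higher and 7 to 8 lower with SGA360, 15 to 16 higher and 5 to 6 lower with SGA315, and 4 to 5 higher and 9 to 11 lower for SGA360 against SGA315.

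With the replicate number as a block the counts were 11 higher and 7 lower with SGA360, 16 and 6 with SGA315, and 5 and 11 between the ligands, the counts found without the block. Deviations of same-numbered libraries from their group means correlated at 0.01 to 0.10, and those of differently numbered libraries at -0.08 to 0.03. The same-numbered values were thus small but all positive. The labels do not say that a number marks a pair, so the main fit held no block. NR3C2 and NR2F1 did not pass the filter for SGA360 when only the compared groups were fitted. Depth limits the receptors with few counts (NR3C2, NR2F1, NR4A2), whose intervals are wide.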
